A study of Arabidopsis thaliana with 9 samples.

Results

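Transcript levels of 8 chloroplast-encoded genes of the plastid gene expression machinery were examined in Arabidopsis seedlings with altered levels of SRT1, a nuclear sirtuin, an NAD-dependent protein deacetylase. The genes are RPS19, RPL22, RPS3, RPL16, RPL14, RPS18 and RPS15, which encode ribosomal proteins, and RPOA, which encodes the alpha subunit of the plastid RNA polymerase. They were taken from the entries of the deposited gene lists by their symbols and by a locus on the chloroplast genome. They are 8 of the 2507 different genes in the 4 lists, and 8 of the 56 chloroplast-encoded ones. They were selected on the FPKM ratios deposited for these same comparisons, so the ratios are given as a description. Another 9 chloroplast genes of the same machinery are listed and were not chosen.

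RNA was measured by sequencing in whole seedlings (leaf, stem and root) that were 14 days old and grown under normal conditions on diluted MS medium, without further treatment. The groups were an SRT1 overexpression line (OX, line OX-SRT1-1), an SRT1 RNA interference line (RNAi, line RNAi-1) and wild type (Col), with 3 libraries each. Each transgenic group is a single line, and the promoter driving either transgene is not stated in the labels. The columns of values are labelled ox5 and r5, and how these labels relate to the line names was not checked. The values are FPKM, which counts fragments relative to transcript length and to all mapped fragments. The files give a single FPKM for each group, so no SD or new test could be computed, and the precision and depth behind each value are unknown. Differences are called as in the authors' deposited tables, which hold only genes that changed at least 2-fold with a q-value (a p-value adjusted for multiple testing) of at most 0.0496.

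The chloroplast keeps a small genome and a bacterial-type ribosome. Its ribosomal proteins are encoded partly in the plastid and partly in the nucleus. A plastid-encoded, bacterial-type RNA polymerase, whose core subunits are the products of RPOA, RPOB, RPOC1 and RPOC2, transcribes most photosynthesis genes. A nuclear-encoded, phage-type polymerase transcribes the RPOB operon and, together with the bacterial-type enzyme, many genes of the ribosome. Ribosomal protein genes lie in clusters that resemble bacterial operons and are transcribed together. In bacteria, the RPS3 protein lies at the entry of the mRNA channel, RPL22 lines the exit tunnel, RPL16 lies close to the site where aminoacyl-tRNA is received, and RPL14 lies at the interface of the subunits. RPS15 is among the first proteins to bind the small-subunit rRNA in bacteria, and in tobacco its gene can be deleted without loss of viability.

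The genes RPS19, RPL22, RPS3, RPL16, RPL14 and RPOA lie in that order on the minus strand within 6383 bases. RPS18 is on the plus strand at 67917 to 68222, in a different cluster, and RPS15 is on the minus strand at 123296 to 123562. The starts of the coding sequences are shown because they tell the genes apart. Sequences are from RefSeq (chloroplast genome in assembly TAIR10.1), 5′ to 3′ on the coding strand, with the start codon in capitals. The deposited loci, given in TAIR10, had the same coordinates as RefSeq for 6 of the 6 members with a locus of their own.
RPS19: GTGacacgttcactaaaaaaaaaccctttt
RPL22: ATGataaagaagagaaaaaagaaatcatat
RPS3: ATGggacaaaaaataaatccacttggtttc
RPL16: ATGcttagtccaaaaagaaccagatttcgt
RPL14: ATGattcaaccacaaacctatttgaatgta
RPOA: ATGgttcgagagaaagtcaaagtatctact
RPS18: ATGaataaatctaagcgactttttactaaa
RPS15: ATGataaaaaatatagtcatttcatttgaa
RPS19 starts with GTG, and the other 7 start with ATG. RPL16 is the only member with an intron in the annotation. Its coding part has 408 of the gene's 1464 bases, and the coding part of its leading exon has 9 bases.

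RPL22 and RPS3 share a deposited locus, Pt:82826-83949. In RefSeq, the end of RPL22 (Pt:83467-83949) overlaps the start of RPS3 (Pt:82826-83482) by 16 bases. The overlap is in capitals in the following stretch of the minus strand, Pt:83447-83502, with 20 bases on either side.
RPL22-RPS3: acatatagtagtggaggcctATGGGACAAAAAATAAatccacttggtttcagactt
The capitals hold the start codon of RPS3 at their left end and the stop codon of RPL22 at their right end. How the reads of this locus were divided between the 2 genes is not given in the sources used here, and their values are not independent.

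The labels of the RNAi tables conflict, which decides the direction of every RNAi value. All 8 genes are in the list titled as higher in RNAi, where wild type is the label of the first column and RNAi that of the second. In the list titled as lower in RNAi the order is reversed, with RNAi first and wild type second. The second columns of the RNAi and OX tables were compared over 570 genes present in both. The log2 ratio of these second columns had a median of 0.08, and 569 of 570 genes, including 55 of 55 chloroplast genes, lay within 0.1 of it. The first columns had a median absolute deviation of 0.447. For the 8 genes, the log2 ratio of the second columns was 0.04 to 0.10. The second column thus carries nearly the same values in both tables for all of these genes but SRT1, the manipulated gene itself, which was 1.75 FPKM there in the OX table and 0.419 FPKM in the RNAi table, a ratio of 4.18. The label of this column is wild type in both OX lists and in 1 of the RNAi lists, and is called the shared column here. RNAi values are given as the first column of the RNAi table relative to it. With the labels of that list taken as deposited, all RNAi directions turn round. The shared column would then be RNAi. The OX folds, which rest on nearly the same values, would then be against RNAi and not against wild type. A further deposited table, of genes in both lists, heads the same RNAi folds as R over col, so it too reads all 8 genes as higher in RNAi. The targeted gene SRT1 was 6.05 FPKM in OX against 1.75 FPKM in the shared column. In the RNAi table it was 2.37 FPKM in the first column, which its list labels RNAi, against 0.419 FPKM in the shared column. SRT1 therefore goes against the label RNAi of that first column.

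In OX, all 8 genes were lower than in the shared column, by 22.0-fold to 145-fold with a median of 24.1-fold. All 56 listed chloroplast genes (100%) were lower in OX, as were 42.3% of all 1966 listed entries, so the direction is no feature of these 8 genes. As each value is for a whole seedling group, less of these RNAs per cell and fewer cells with chloroplasts cannot be told apart. RPS15 had the largest decrease and RPL22 the smallest. The folds of 5 members were close together, and those of 3 were larger. RPL22, RPS3, RPL16, RPL14 and RPOA lay between 22.0-fold and 25.5-fold, while RPS19, RPS18 and RPS15 were 68.1-fold, 39.9-fold and 145-fold lower.
RPS15, the small-subunit protein gene far from the cluster, was 0.699 FPKM in OX against 101 FPKM in the shared column. Its deposited q-value in the authors' table was 0.0149, against 0.00015 for the other 7 genes. RPS19, a small-subunit protein gene at the head of the listed cluster, was 2.95 FPKM in OX against 200.5 FPKM in the shared column. RPS18, also of the small subunit, was 1.57 FPKM in OX against 62.7 FPKM in the shared column. These 3 genes had the lowest values in OX together with RPOA, but not in the shared column, where RPS19 was the third highest of the 8.
The large-subunit gene RPL14 had the highest level of the 8 in each column, at 15.5 FPKM in OX against 395 FPKM in the shared column. RPL16 was 9.64 FPKM in OX against 219 FPKM in the shared column. RPL22 was 6.96 FPKM in OX against 153 FPKM in the shared column, and its neighbour RPS3 was 6.76 FPKM in OX against 152 FPKM in the shared column. RPOA was 3.01 FPKM in OX against 68.1 FPKM in the shared column. The highest OX value among the 8 was thus below the lowest value in the shared column. The levels were spread over a 22.2-fold range in OX and a 6.29-fold range in the shared column.

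All 8 genes were also below the shared column in the first column of the RNAi table (labelled wild type in their list), by 10.3-fold to 16.1-fold with a median of 13.5-fold. Again all 55 listed chloroplast genes (100%) were lower, as were 66.5% of all 1126 listed entries. The 47 other chloroplast genes had a median of 4.88-fold and a range of 3.30-fold to 13.0-fold. All 8 members were among the 11 largest folds of the 55 chloroplast genes, while in OX 3 of the 8 were among the 11 largest of 56. YCF1.2, a subunit gene of the protein import machinery, was also among those 11 in the RNAi table. The limit of 11 is the rank of RPS15, the lowest-ranked member in the RNAi table, so the 8 of 8 there follows from the limit. Since the genes were chosen with these folds in view, the ranks are a description of the list.
RPS19 was 11.7 FPKM in the first column of the RNAi table and 189 FPKM in the shared column, 16.1-fold lower. RPL16 was 13.1 FPKM in the first column and 208 FPKM in the shared column, 15.8-fold lower. RPL22 was 10.6 FPKM in the first column and 146 FPKM in the shared column, and RPS3 was 10.8 FPKM in the first column and 145 FPKM in the shared column. The last pair was 13.8-fold and 13.4-fold lower, so the folds of these 4 adjacent genes spanned 13.4 to 16.1.
RPL14 was 28.0 FPKM in the first column and 383 FPKM in the shared column, 13.7-fold lower. RPOA was 5.58 FPKM in the first column and 64.3 FPKM in the shared column, 11.5-fold lower. RPS18, in the other cluster, was 5.35 FPKM in the first column and 58.6 FPKM in the shared column, 10.9-fold lower. RPS15 was 9.31 FPKM in the first column and 95.8 FPKM in the shared column, 10.3-fold lower, with a deposited q-value of 0.00132. Unlike in OX, RPS15 thus had the smallest fold of the 8. The levels were spread over a 5.23-fold range in the first column and a 6.54-fold range in the shared column of that table.

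**Figure D1:**
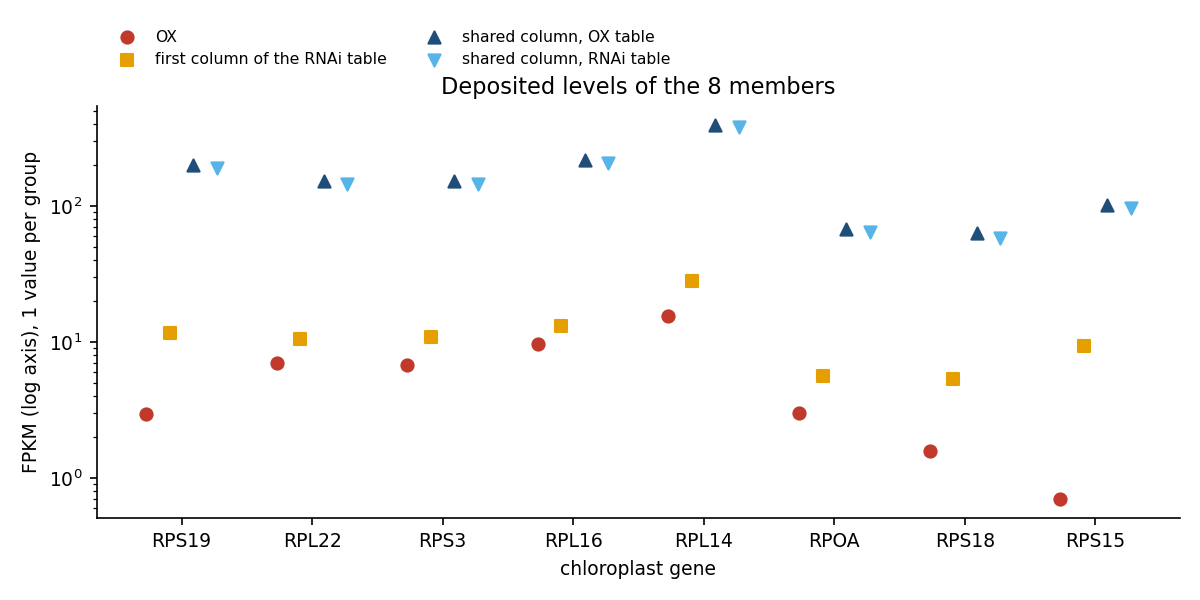
Deposited FPKM (log axis, 1 value per group) of the 8 genes in OX, in the first column of the RNAi table and in the shared column as given in the OX and in the RNAi table. OX values run from 0.699 for RPS15 to 15.5 for RPL14, and for each gene OX is the lowest value.

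The OX column and the first column of the RNAi table were then set side by side, although the 2 tables were scaled separately and no test is possible. Every member was lower in OX than in the first column of the RNAi table, by a factor of 1.36 to 13.3. For the 5 cluster genes without RPS19 the first column of the RNAi table was only 1.36 (RPL16), 1.52 (RPL22), 1.60 (RPS3), 1.81 (RPL14) and 1.85 (RPOA) times OX. RPS18, RPS19 and RPS15 gave 3.40, 3.98 and 13.3 times OX. For 13 photosystem and cytochrome b6f genes, which encode the complexes of photosynthetic electron transport, the same factor had a median of 6.36 and a range of 3.35 to 49.3. The 5 cluster genes all lay below that range, but so did other chloroplast genes, among them RPOB (0.954), YCF1.2 (1.41), ATPB and RPOC1 (both 1.76), ATPE (1.92) and NDHC (1.97).

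The 8 genes also took different shares of the summed FPKM of the 55 chloroplast genes listed in both comparisons. They made up 11.2% of that sum in OX, against 10.1% in the shared column of the OX table. In the first column of the RNAi table they made up 3.36%, against 10.2% in the shared column of that table. The 13 photosystem and cytochrome b6f genes made up 48.4% in OX against 59.0% in the shared column, and 67.7% in the first column of the RNAi table against 58.9% in the shared column. The sum itself was 421 FPKM in OX against 13360 FPKM in the shared column, and 2812 FPKM in the first column of the RNAi table against 12643 FPKM in the shared column.

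**Figure D2:**
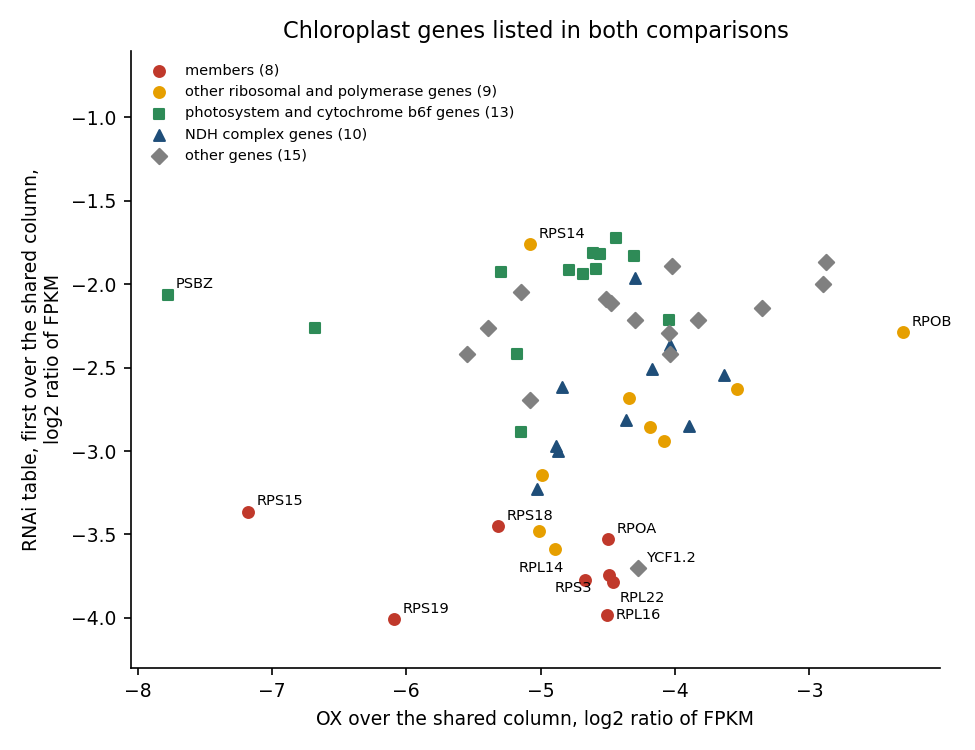
Log2 ratio of FPKM for the 55 chloroplast genes listed in both comparisons, with OX over the shared column on the x axis and the first column of the RNAi table over the shared column on the y axis. The 8 members have y values from -4.01 to -3.36, below all 13 photosystem and cytochrome b6f genes, of which PSAC is the lowest at -2.88. On the x axis the members overlap with those genes. Both axes share a column, so no relation is read from the plot.

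Along the chloroplast genome, the RNAi folds changed sharply at the end of the cluster. RPOA, its last gene, lies 228 bases from PETD, which is on the opposite strand and belongs to a cluster with PETB, PSBH and PSBB. These 4 genes encode subunits of the cytochrome b6f complex and of photosystem II. RPOA was 11.5-fold lower and PETD 3.76-fold lower than in the shared column of the RNAi table, and PETB, PSBH and PSBB were 3.77-fold, 4.80-fold and 3.55-fold lower. The 6 members from RPS19 to RPOA had folds of 11.5 to 16.1 there. In OX there was no such step, with RPOA 22.6-fold lower and PETD 24.1-fold lower.
RPL2 and RPL23, which precede RPS19, are not listed. RefSeq gives RPL2 and RPL23 at 2 places each in the chloroplast genome.

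**Figure D3:**
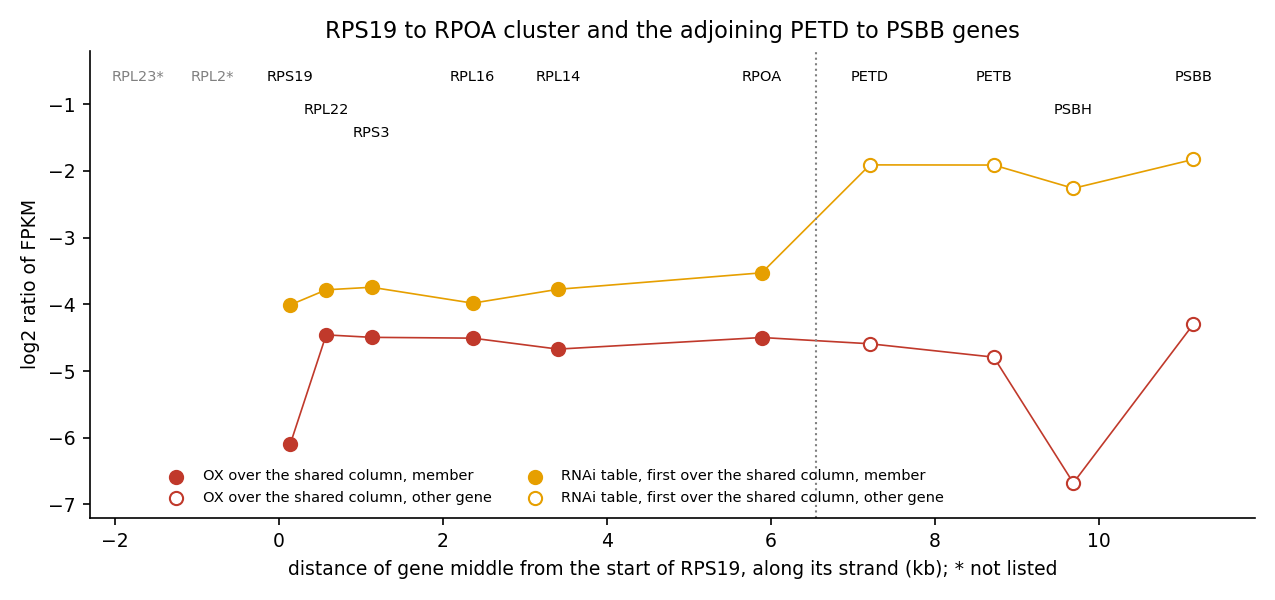
Log2 ratio of FPKM against the distance of each gene's middle from the start of RPS19, along the strand of the cluster, for OX over the shared column (red) and the first column of the RNAi table over the shared column (orange), with members filled; not every gene of the region is drawn. The dotted line marks the change of strand between RPOA and PETD, where the RNAi ratio goes to -1.91 for PETD, next to -3.53 for RPOA, and the OX ratio is -4.59 next to -4.50.

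The pair of members outside the cluster differed in their neighbours. RPS18 lies 289 bases from RPL20, a large-subunit protein gene on the opposite strand, which was 31.7-fold lower in OX and 8.84-fold lower in the RNAi table. The next listed gene on that side, CLPP1, a protease subunit gene, was 10.2-fold lower in OX and 4.42-fold lower in the RNAi table. RPS15 lies between NDHH, at a distance of 103 bases, and YCF1.2, at 321 bases. NDHH encodes a subunit of the NDH complex and was 32.7-fold lower in OX and 9.36-fold lower in the RNAi table, and YCF1.2 was 19.4-fold and 13.0-fold lower. Across the RNAi values, the genes from NDHH to NDHE (NDHH, NDHA, NDHI, NDHG and NDHE) were 6.12-fold to 9.36-fold lower. The next gene, PSAC of photosystem I, was 7.38-fold lower, against 3.90-fold for NDHD, which lies beyond it.

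Of the other listed genes of the same machinery, 7 are described here. All 7 were lower than the shared column in both tables, by 4.93-fold to 33.8-fold in OX and by 3.38-fold to 8.84-fold in the RNAi table. RPOB, RPOC1 and RPOC2, which with RPOA encode the core of the plastid polymerase, were lower by 4.93-fold, 11.6-fold and 16.9-fold in OX, against 22.6-fold for RPOA. RPOB had the smallest OX fold of all 56 chloroplast genes and nearly the same level in both first columns, at 4.83 FPKM in OX and 4.60 FPKM in the first column of the RNAi table, with 23.8 FPKM in the shared column of the OX table. In the RNAi table RPOB, RPOC1 and RPOC2 were lower by 4.88-fold, 6.18-fold and 7.68-fold, against 11.5-fold for RPOA. RPOA thus had the largest fold of the 4 polymerase genes in both tables. It is the only one of the 4 that was chosen, with the folds in view, so this rank is a description.
RPS2 and RPS4, small-subunit genes, were 20.3-fold and 18.2-fold lower in OX and 6.42-fold and 7.24-fold lower in the RNAi table. RPS14, a small-subunit gene 134 bases from the photosystem I gene PSAB, was 33.8-fold lower in OX and 3.38-fold lower in the RNAi table. PSAB and PSAA were 3.30-fold and 3.52-fold lower in the RNAi table, so the values of RPS14 in that table were close to those of these neighbours and apart from those of the 8 members. The machinery genes RPS7, RPS12, RPS16, RPL2, RPL23, RPL32, RPL33 and RPL36 are not listed, which does not show that they did not change. RefSeq gives 4 of these 8 at 2 places each in the chloroplast genome.

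By the distance of their 2 log2 ratios from the medians of the members, YCF1.2 (0.32), NDHH (0.69) and RPL20 (0.73) were among the 5 most similar chloroplast genes. The measure rests on 2 comparisons only, which share a column.

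Length moved with the OX folds. Over the 56 listed chloroplast genes, Spearman's rho between locus length and OX fold was -0.65, and Pearson's r of their logs was -0.67. These genes share libraries and lie partly in shared transcripts, so the values are a description. The 8 genes under 300 bases, RPS15 and RPS19 among them at 267 and 279 bases, had a median OX fold of 85.2 and a range of 35.4 to 235, against a median of 22.1 for the 48 longer ones. For the RNAi folds rho was -0.34 over 55 genes, and the medians were 5.35-fold for the 7 genes under 300 bases and 5.35-fold for the 48 longer ones. RPS19 had the largest and RPS15 the smallest fold of the 8 members there. Over the 48 genes of 300 bases or more, rho was -0.47 for the OX folds and -0.37 for the RNAi folds. Length is that of the deposited locus, so RPL16 counts with its intron, and RPL22 and RPS3 with their shared locus. The part of length in the OX folds of RPS15, RPS19 and RPS18 was not tested. The coding sequences of the 2 short members are given whole, with start and stop codons in capitals.
RPS15: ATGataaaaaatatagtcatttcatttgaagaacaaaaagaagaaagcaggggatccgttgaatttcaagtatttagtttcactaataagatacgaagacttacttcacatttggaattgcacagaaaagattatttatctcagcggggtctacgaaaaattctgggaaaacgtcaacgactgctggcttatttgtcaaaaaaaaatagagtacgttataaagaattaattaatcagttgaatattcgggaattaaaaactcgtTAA
RPS19: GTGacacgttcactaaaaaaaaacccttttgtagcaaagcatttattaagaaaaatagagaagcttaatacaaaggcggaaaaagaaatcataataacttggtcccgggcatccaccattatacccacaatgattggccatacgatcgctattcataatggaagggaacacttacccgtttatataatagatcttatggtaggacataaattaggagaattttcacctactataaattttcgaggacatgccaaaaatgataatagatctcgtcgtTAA
The G and C share of the coding sequence was 30.7% for RPS15 and 34.8% for RPS19, and 32.6% to 40.9% for the other 6.

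**Figure D4:**
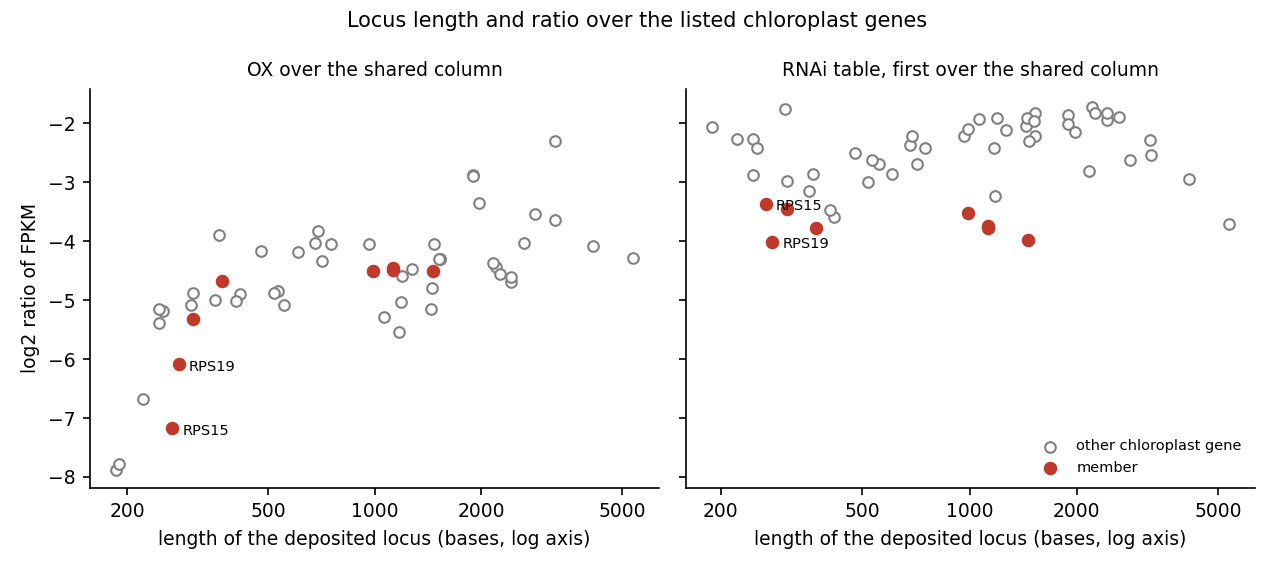
Log2 ratio of FPKM against the length of the deposited locus (log axis) for the listed chloroplast genes, in OX (left) and in the RNAi table (right), with the 8 members in red. In OX, RPS15 at -7.18 and RPS19 at -6.09 lie with the other short genes at the bottom left, and in the RNAi table the members lie between -4.01 and -3.36 at all lengths.

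Of 21 nuclear genes that act on chloroplast transcription (sigma factors, phage-type polymerases and proteins attached to the plastid polymerase), 1 was listed in OX and 0 in the RNAi table. RPOT3 (AT2G24120, SCA3) encodes a phage-type polymerase of the chloroplast. It was 7.57 FPKM in OX against 3.15 FPKM in the shared column, 2.40-fold higher, with a deposited q-value of 0.00015 in the authors' table. RPOT3 went the opposite way to the 8 members and to RPOB. That was the more common direction among listed nuclear genes, of which 1134 of 1879 were higher in OX. A link between RPOT3 and the chloroplast genes was not tested. Of 22 nuclear genes found by a search of RefSeq names for ribosomal proteins of the plastid or bacterial type, 0 were listed in either comparison. The search can miss plastid ribosomal genes that are named otherwise, and not every hit need be plastid. An absence from the lists does not show that a gene was unchanged.

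The listed mitochondrial genes were lower as well, by a median of 5.32-fold and at most 26.3-fold in OX (31 of 31), and by a median of 2.80-fold and at most 7.79-fold in the RNAi table (21 of 21). Of the mitochondrially encoded ribosomal protein genes, RPL16 was lower by 12.4-fold in OX and 5.36-fold in the RNAi table, and RPL2 was lower by 4.04-fold in OX and not listed in the RNAi table. Of 10 nuclear marker genes of green tissue, 3 were listed in OX and all 3 were lower, with a summed level of 12193 FPKM in OX against 27477 FPKM in the shared column. A single one of the 10, LHCB1.2, was listed in the RNAi comparison, at 5644 FPKM in the first column against 13000 FPKM in the shared column. Of 12 root markers, 6 were listed in OX and 7 in the RNAi table, all lower, with sums of 11.0 FPKM in OX against 27.8 FPKM in the shared column, and 10.2 FPKM in the first column of the RNAi table against 27.3 FPKM in the shared column. Among all listed nuclear genes, 745 of 1879 were lower in OX and 673 of 1050 were lower in the RNAi table. The part of tissue makeup in the folds of the 8 genes was not tested.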

How the data were processed

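RNA of 9 seedling libraries (3 groups of 3, grouped by sample title) was sequenced with a TruSeq kit, per the labels' protocols, which do not state whether RNA was selected by its poly(A) tail. Such a selection would bear on chloroplast RNA, most of which lacks a long tail. TopHat2 2.1.1, Cufflinks 2.2.1 and Cuffdiff were used with TAIR10, per the submitters' processing notes, without their roles. The deposited values are FPKM, 1 per group, with a log2 ratio of the second over the first column, p-values and q-values, per the file headers. Another table of the authors gives the linear ratio (fold) of genes in both lists; it holds the 8 members with the same folds within 0.001, headed R over col for RNAi. The 4 lists and this table were used, and no other deposited table. The smallest p-value, 5e-05, was deposited for 7 of the 8 members in each comparison.

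Folds here are ratios of the 2 FPKM values with the higher on top and no pseudocount, and log2 ratios are first over second column. The planned fit of values per library by limma could not be run. Loci were counted from 1. Members and lists were chosen with earlier results of these data known. Named genes are the 8 members, the listed chloroplast genes of the same machinery (some are not reported here), their neighbours on the genome (chosen after values were seen), listed nuclear partners and the 5 most similar chloroplast genes. Ratios and the search for similar genes were tested on simulated data. Python 3.11.15, pandas 2.3.3, numpy 2.4.6 and matplotlib 3.10.9 were used.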

Additional observations from a re-analysis of the deposited data

How the results depend on the processing

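No paired analysis was possible because the tables hold no values of single libraries; for the same reason no library could be left out. The count of members lower than the shared column was 8 in both tables. It stayed 8 with a minimum of 5 FPKM, a log2 limit of 1.5 or a pseudocount of 1. These settings could not lower it, as the lowest shared value was 58.6 FPKM and the log2 ratio nearest to 0 was -3.36. With a q-value limit of 0.01 it was 7 in OX, without RPS15, and 8 in the RNAi table. It was 7 with RPL22 and RPS3 counted once and 6 with both left out, which is every gene that remained. The median log2 ratio of -4.59 in OX and -3.76 in the RNAi table was -4.48 and -3.64 with log2(FPKM + 1), and -5.68 and -2.66 after centring on the median of the listed nuclear genes, which was 1.09 in OX and -1.10 in the RNAi table. That median is set by which genes passed the authors' limits. With log2(FPKM + 1), 13 of 16 single ratios moved by over 0.1 and 0 changed sign; RPS15 in OX was -5.91, next to -7.18. An alternative added after the data were seen takes the column labels of the RNAi table as deposited: 0 members are then lower in RNAi and the median log2 ratio is 3.76. The OX ratios keep their values there, but the shared column under them would be RNAi and not wild type. Depth is unknown, so the precision of the low OX values cannot be given.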
